A study of Mus musculus with 8 samples.

Results

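The 33 genes described here are targets of the hypoxia-inducible factors (HIFs) and genes of glycolysis. They were chosen with earlier results of these data known. Spots were taken by name, from the symbol of a member or an older symbol such as Pkm2 for Pkm. Each gene was read from its brightest probe. All 33 were on the array, on 62 probes, and 32 of them were among the 14782 genes tested. They are 13 HIF targets outside the glycolytic chain, 14 glycolytic enzymes, 5 transporters and regulators of glycolysis, and Hif1a itself. Pgam1, a phosphoglycerate mutase, was not tested because its only probe lacked a usable spot on the 6 h B. clausii array.

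The cells were RAW 264.7, a mouse macrophage-like line of BALB/c background. They were treated with Lactobacillus acidophilus MTCC-10307 or Bacillus clausii MTCC-8326 at 100 bacteria per cell for 1, 2, 4 or 6 h, and the series title gives the kinetics of expression as its subject. Each of the 8 two-colour arrays set RNA of treated cells (Cy5) against RNA of untreated cells of the same time (Cy3), and each RNA was an equal pool of 3 cultures. No array has a replicate, dyes were not exchanged, slide and scan coincide with the bacterium, and position on the slide coincides with time, so these cannot be told apart. The labels describe no change of oxygen, and they do not say whether the arrays of both bacteria at a given time shared untreated RNA.

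Between 39.6% and 51.5% of probes were well above background in a channel, no spot was saturated, and replicate spots of a probe varied with an SD of 0.0966 to 0.130 log2 within an array. Of 8 macrophage markers, 7 were detected in untreated cells on all 8 arrays and Itgam on 3, while none of the 7 fibroblast, epithelial and endothelial markers was detected there. The T cell marker Cd3e was detected on 7 arrays, and Cd3g, Cd8a and Ms4a1 on none. In RNA from whole cultures, fewer cells and less RNA per cell cannot be told apart.

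HIFs are transcription factors made of an oxygen-labile alpha subunit, such as the product of Hif1a, and a stable partner. Prolyl hydroxylases use oxygen to mark the alpha subunit for destruction, so in low oxygen it accumulates and binds the hypoxia response element near genes for glucose uptake, glycolysis, vessel growth and mitophagy. Macrophages are also known to accumulate HIF in normal oxygen after contact with bacterial products, and activated macrophages shift toward glycolysis.

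Promoter windows of RefSeq (build GRCm38.p6, 300 bases, from 250 before to 50 after a start site) were found for 31 of the 33 members, with none for Ndrg1 and Bnip3l. They were searched on both strands for ACGTG, the common core of the hypoxia response element, which also lies within the E-box CACGTG, and for its variant GCGTG. The 6 windows below are those of the 4 members whose ratios fell most between early and late times and have a window, and of 2 enzymes that did not pass that test, 1 rich in cores (Ldha) and 1 with none (Tpi1). Capitals mark the cores, and each window reads 5′ to 3′ in the direction of the gene.
Adm (chr7:110627407-110627706, plus strand): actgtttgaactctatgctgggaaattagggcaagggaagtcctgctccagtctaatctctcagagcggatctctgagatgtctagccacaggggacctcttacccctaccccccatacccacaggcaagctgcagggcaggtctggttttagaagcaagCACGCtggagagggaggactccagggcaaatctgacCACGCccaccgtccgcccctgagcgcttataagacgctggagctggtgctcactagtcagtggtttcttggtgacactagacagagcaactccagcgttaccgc
P4ha1 (chr10:59323046-59323345, plus strand): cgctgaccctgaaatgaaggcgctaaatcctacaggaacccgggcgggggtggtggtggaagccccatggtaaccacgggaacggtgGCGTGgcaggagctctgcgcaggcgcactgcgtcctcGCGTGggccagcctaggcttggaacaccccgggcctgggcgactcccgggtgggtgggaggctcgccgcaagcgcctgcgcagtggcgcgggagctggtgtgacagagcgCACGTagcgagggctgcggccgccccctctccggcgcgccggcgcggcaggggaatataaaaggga
Slc2a1 (chr4:119108495-119108794, plus strand): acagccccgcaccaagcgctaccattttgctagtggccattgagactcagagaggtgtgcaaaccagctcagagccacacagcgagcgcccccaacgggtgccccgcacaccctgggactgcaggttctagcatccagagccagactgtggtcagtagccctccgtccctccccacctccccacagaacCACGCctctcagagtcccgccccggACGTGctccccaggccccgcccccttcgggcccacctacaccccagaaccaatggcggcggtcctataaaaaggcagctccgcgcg
Ankrd37 (chr8:45999801-46000100, minus strand): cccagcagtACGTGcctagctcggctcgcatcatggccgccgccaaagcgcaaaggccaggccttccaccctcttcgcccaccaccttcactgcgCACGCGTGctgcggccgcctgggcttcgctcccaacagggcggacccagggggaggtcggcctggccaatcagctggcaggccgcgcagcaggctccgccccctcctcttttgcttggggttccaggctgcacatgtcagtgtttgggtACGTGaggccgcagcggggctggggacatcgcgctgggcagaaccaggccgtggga
Ldha (chr7:46845554-46845853, plus strand): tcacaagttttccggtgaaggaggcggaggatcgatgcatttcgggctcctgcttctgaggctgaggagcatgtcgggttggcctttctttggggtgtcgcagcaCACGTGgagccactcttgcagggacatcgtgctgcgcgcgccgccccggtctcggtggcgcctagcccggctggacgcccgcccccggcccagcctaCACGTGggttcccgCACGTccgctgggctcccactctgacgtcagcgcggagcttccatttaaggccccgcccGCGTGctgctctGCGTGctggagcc
Tpi1 (chr6:124814109-124814408, minus strand): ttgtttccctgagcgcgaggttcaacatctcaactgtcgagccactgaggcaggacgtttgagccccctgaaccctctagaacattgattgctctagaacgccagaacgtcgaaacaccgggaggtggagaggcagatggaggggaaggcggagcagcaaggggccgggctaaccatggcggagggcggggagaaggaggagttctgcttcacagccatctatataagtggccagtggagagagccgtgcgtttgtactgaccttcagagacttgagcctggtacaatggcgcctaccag
ACGTG was present in 25 of the 46 member windows (54.3%), against 19.6% of all 32851 windows, and GCGTG in 54.3% against 32.4%. The windows were not matched for base composition, and several of 1 gene overlap. By role, 62.5% of the windows of HIF targets and 45.5% of those of glycolytic enzymes held ACGTG. For GCGTG the shares were 56.2% and 54.5%. Either core was present in 75.0% of HIF target windows and 77.3% of enzyme windows, against 43.8% of all windows. Of the members whose ratio fell late, 10 of 14 with a window held ACGTG, and of those that did not pass that test 11 of 16 did.

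Values below are log2 ratios of treated to untreated cells. Single values are 1 array each, and values after ± are standard errors from limma, a linear model fitted over all genes. The 3 kinds of comparison were the mean of the 4 arrays of each bacterium, the difference of the bacteria, and late (4 and 6 h) minus early (1 and 2 h) over both. The spread in these fits is the disagreement of both bacteria within times. Error common to both bacteria at a time, as from shared untreated RNA, is not in it. Nor is the variation between 1 and 2 h or between 4 and 6 h. The difference of the bacteria in late minus early came from a separate fit. Its spread is that variation between 1 and 2 h and between 4 and 6 h within each bacterium. A gene passed at a Benjamini-Hochberg adjusted p under 0.05 over the 14782 genes.

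The HIF targets were mostly higher in treated cells at 1 and 2 h and had come down by 4 and 6 h, with either bacterium. Between early and late arrays 15 of the 32 members fell and 0 rose, where 12.3% of all genes tested fell and 12.2% rose. The 15 were 8 of 13 HIF targets (Adm, P4ha1, Ndrg1, Ankrd37, Vegfa, Bnip3, Egln3, P4ha2), 3 of 5 transporters and regulators (Slc2a1, Slc16a3, Pdk1) and 4 of 13 enzymes (Hk2, Pfkp, Pfkl, Pkm). The median difference was -0.54 for the HIF targets, -0.32 for the transporters and regulators and 0.02 for the enzymes, against 0.00 for all genes. On the 1 h arrays 4 of 32 members were at least 2-fold higher with L. acidophilus (Adm, Ankrd37, Slc2a1, Hk2) and 3 with B. clausii (Adm, Ankrd37, Slc2a1), where 0.176% and 0.494% of genes were. A constant dye effect cancels in the late minus early comparison. With arrays centred on their medians in place of loess, 10 members fell and 6 rose, where 2.58% of all genes fell and 19.6% rose. Over all members the share that rose was near that of all genes. The 6 were all enzymes, so of the 13 enzymes 6 rose and 1 fell. Their median difference was then 0.26, against 0.08 for all genes, so the enzyme median depended on the normalization. Of the 13 HIF targets 7 fell.

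**Figure D1:**
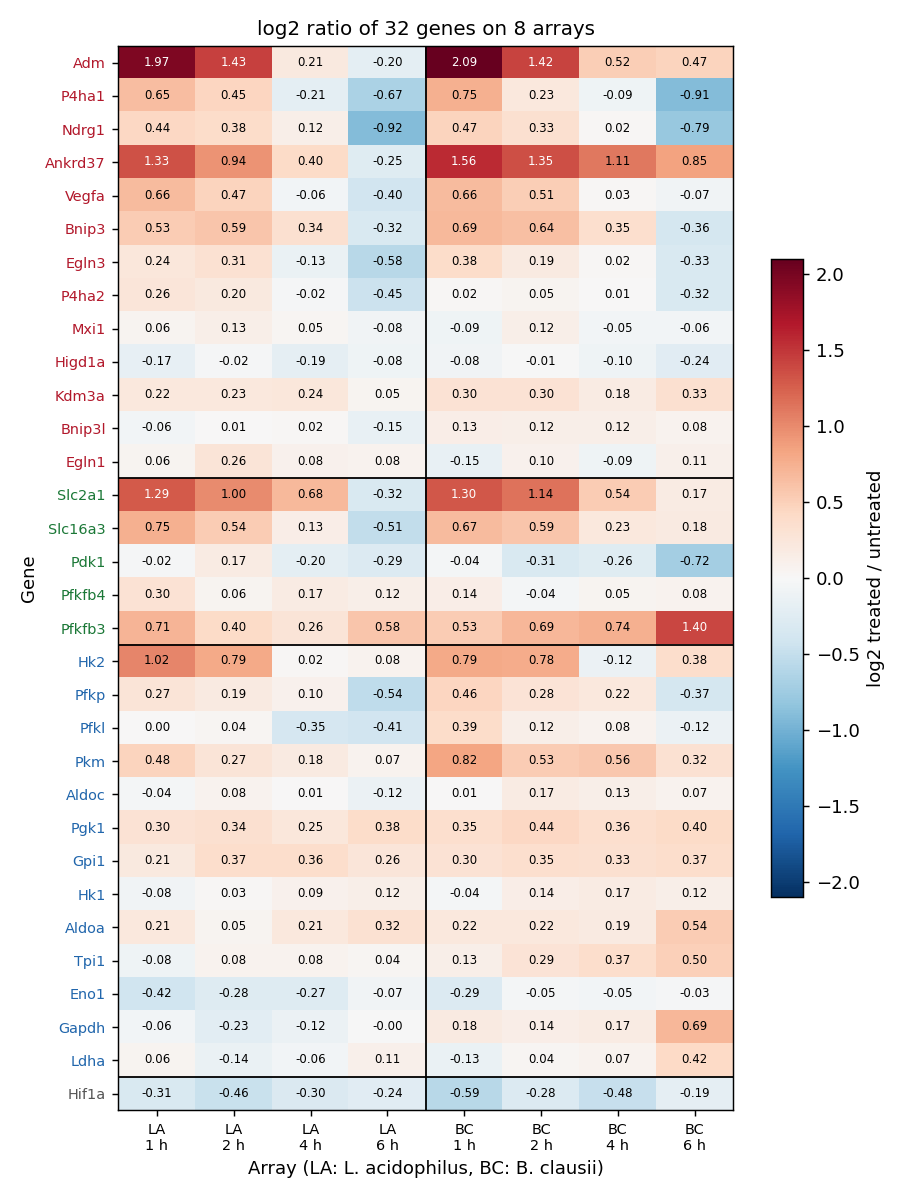
Log2 ratio of treated to untreated cells for the 32 tested genes (rows, ordered within each group by late minus early) on the 8 arrays (columns, L. acidophilus left, B. clausii right). HIF targets are named in red, transporters and regulators in green, enzymes in blue and Hif1a in grey. The darkest cells are Adm at 1 h, 1.97 and 2.09.

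Adm encodes adrenomedullin, a secreted vasodilator peptide and a classical HIF target. Its ratio with L. acidophilus was 1.97 at 1 h, 1.43 at 2 h, 0.21 at 4 h and -0.20 at 6 h, and with B. clausii 2.09, 1.42, 0.52 and 0.47. All 4 early arrays lay above all 4 late ones, and the 1 h values correspond to 3.91-fold and 4.27-fold. Adm fell by 1.48 ± 0.10 from early to late (limma, adjusted p = 0.000135), the largest fall among the members. Its probe lies at chr7:117773088-117773147 on the plus strand of mm9, the build of the array files, and the promoter window above holds GCGTG but not ACGTG.

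Vegfa encodes the main vessel growth factor. Its ratio was 0.66, 0.47, -0.06 and -0.40 over 1, 2, 4 and 6 h with L. acidophilus, against 0.66, 0.51, 0.03 and -0.07 with B. clausii. The bacteria were close at 1 h, and all early arrays lay above all late ones. Vegfa fell by 0.70 ± 0.07 (limma, adjusted p = 0.000468). Of its 3 other probes kept, 1 ran alike (early mean 0.49, late -0.02), 1 less so (0.38 and 0.25), and 1 near background did not (0.10 and 0.13).

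Ankrd37, an ankyrin repeat protein and HIF target, stayed high longer with B. clausii. Its ratio with L. acidophilus was 1.33, 0.94, 0.40 and -0.25 in time order, and with B. clausii 1.56, 1.35, 1.11 and 0.85. Here the groups overlapped, since the late B. clausii arrays lay near the 2 h L. acidophilus array. Ankrd37 fell by 0.77 ± 0.12 over both bacteria (limma, adjusted p = 0.00346), a call that was lost on the deposited processed signals (-0.82) and with local background as deposited (-0.39). The fall was -1.06 with L. acidophilus, against -0.47 with B. clausii, but the difference of the falls, -0.59 ± 0.29, did not pass (limma, adjusted p = 0.9999).

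Ndrg1, a stress-responsive gene induced by hypoxia in many cell types, ended well below untreated cells. Its ratio was 0.44, 0.38, 0.12 and -0.92 with L. acidophilus, against 0.47, 0.33, 0.02 and -0.79 with B. clausii. Both 6 h arrays stood far below the other 6. Ndrg1 fell by 0.80 ± 0.06 (limma, adjusted p = 0.000234), and the difference was -0.33 with both 6 h arrays left out, still past the threshold.

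P4ha1 and P4ha2 encode catalytic subunits of collagen prolyl 4-hydroxylase. P4ha1 read 0.65, 0.45, -0.21 and -0.67 with L. acidophilus, against 0.75, 0.23, -0.09 and -0.91 with B. clausii. Like Ndrg1 it went from above to below the untreated level, with no overlap of early and late arrays, and it fell by 0.99 ± 0.08 (limma, adjusted p = 0.000283). A second, dimmer P4ha1 probe gave early and late means of 0.12 and -0.20. P4ha2 read 0.26, 0.20, -0.02 and -0.45 with L. acidophilus, against 0.02, 0.05, 0.01 and -0.32 with B. clausii. Its probe was dim, detected in treated cells on 6 of 8 arrays. The early rise was visible with L. acidophilus alone, and the early difference between the bacteria was not tested by itself. Their difference over all times (0.06 ± 0.07) and in late minus early (-0.27 ± 0.22) did not pass. P4ha2 fell by 0.33 ± 0.07 over both bacteria (limma, adjusted p = 0.0121). That call was lost with median centring (-0.28), with local background as deposited (-0.21) and without both 6 h arrays (-0.14), and on the processed signals the difference was -1.21.

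Bnip3 and Bnip3l encode receptors that mark mitochondria for mitophagy. Bnip3 read 0.53, 0.59, 0.34 and -0.32 with L. acidophilus, against 0.69, 0.64, 0.35 and -0.36 with B. clausii. The 4 h arrays were still above the untreated level and the 6 h arrays below it. Bnip3 fell by 0.61 ± 0.06 (limma, adjusted p = 0.000464), and without both 6 h arrays the difference was -0.27, no longer past the threshold. Its paralogue Bnip3l stayed between -0.15 and 0.13 on the 8 arrays, and its late minus early difference of -0.03 ± 0.06 did not pass.

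Egln1 and Egln3 encode HIF prolyl hydroxylases, the oxygen sensors that are themselves known HIF targets. Egln3 read 0.24, 0.31, -0.13 and -0.58 with L. acidophilus, against 0.38, 0.19, 0.02 and -0.33 with B. clausii, with no overlap of early and late arrays. It fell by 0.54 ± 0.07 (limma, adjusted p = 0.00164), a call lost on the deposited processed signals (-0.63). Egln1 ranged from -0.15 to 0.26, and its difference of -0.02 ± 0.06 did not pass.

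The other 3 HIF targets were nearly flat. Kdm3a, a histone demethylase, was above 0 on all 8 arrays, between 0.05 and 0.33. Mxi1, an antagonist of Myc, lay between -0.09 and 0.13, and Higd1a, a protein of the mitochondrial inner membrane, between -0.24 and -0.01. None of the 3 passed for late minus early.

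**Figure D2:**
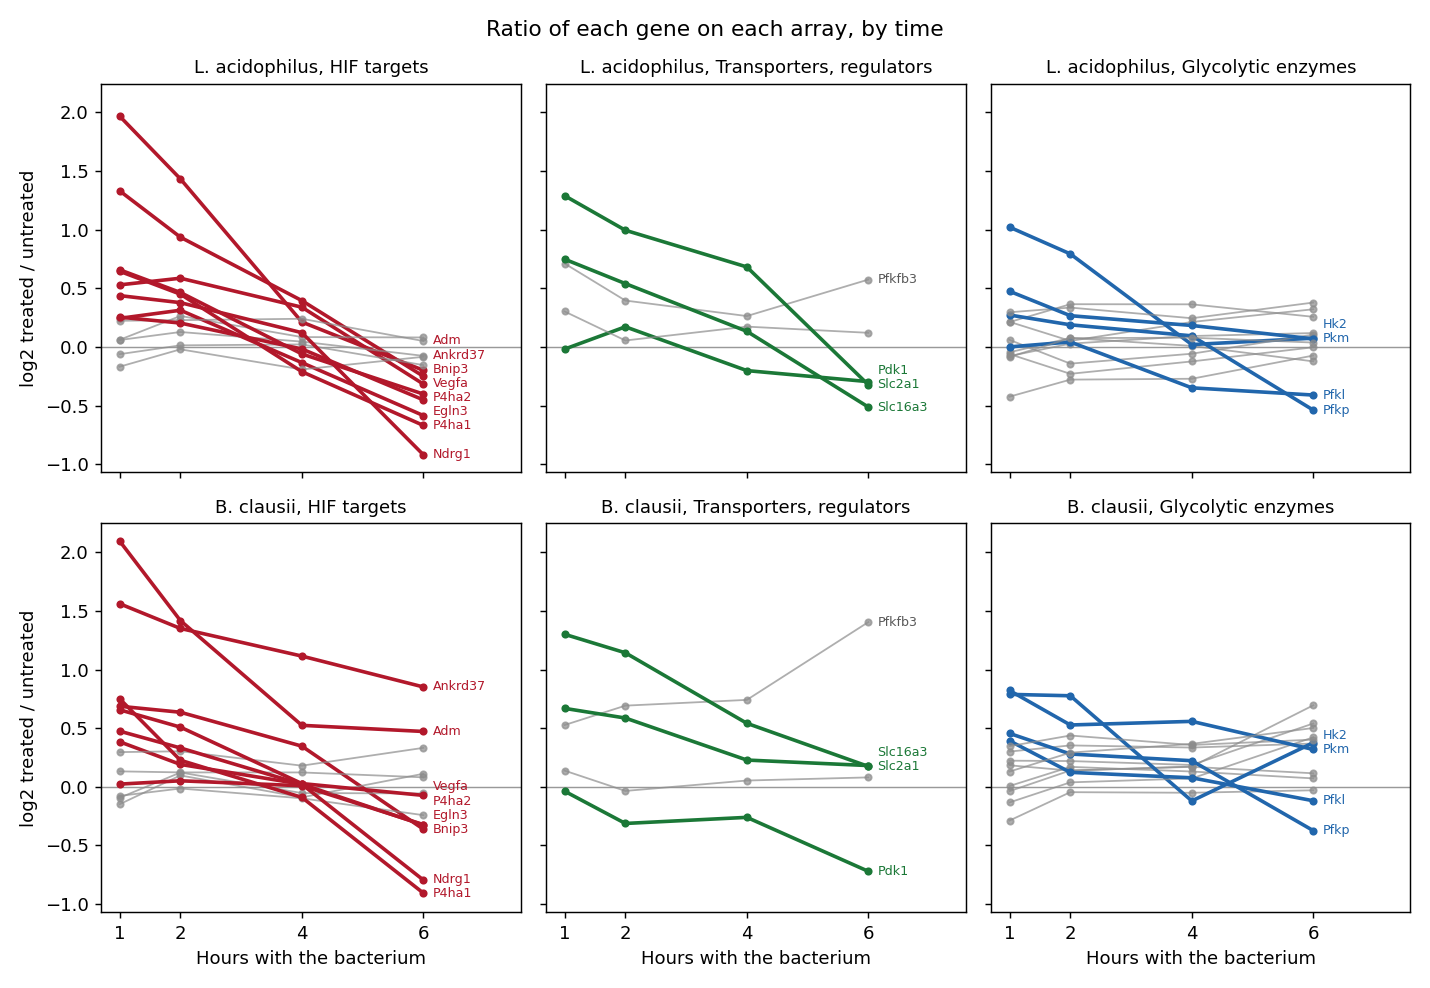
Log2 ratio (y axis) against hours of treatment (x axis) for each gene, 1 array per point, with L. acidophilus in the upper and B. clausii in the lower panels. Coloured lines are members whose ratio fell from early to late, grey lines are the others, and labels at the right name the coloured genes and Pfkfb3. All 15 coloured lines end below their 1 h value with both bacteria, while Pfkfb3 ends at 1.40 with B. clausii.

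Among transporters and regulators of glycolysis, glucose and lactate transport followed the HIF targets. Slc2a1, the glucose transporter GLUT1, read 1.29, 1.00, 0.68 and -0.32 with L. acidophilus, against 1.30, 1.14, 0.54 and 0.17 with B. clausii. The early values correspond to 1.99-fold to 2.46-fold, and all of them exceeded the late ones. Slc2a1 fell by 0.91 ± 0.10 (limma, adjusted p = 0.000604). Slc16a3, the lactate exporter MCT4, read 0.75, 0.54, 0.13 and -0.51 with L. acidophilus, against 0.67, 0.59, 0.23 and 0.18 with B. clausii, again without overlap, and fell by 0.63 ± 0.11 (limma, adjusted p = 0.00564).

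Pdk1 encodes a kinase that shuts pyruvate dehydrogenase. Its brightest probe read -0.02, 0.17, -0.20 and -0.29 with L. acidophilus, against -0.04, -0.31, -0.26 and -0.72 with B. clausii, and it fell by 0.32 ± 0.09 (limma, adjusted p = 0.0300). The early and late arrays overlapped, the call held under 12 of 25 alternatives, and the other Pdk1 probe was of opposite sign, with means of 0.18 (L. acidophilus) and 0.16 (B. clausii) against -0.09 and -0.33.

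Pfkfb3 and Pfkfb4 make fructose 2,6-bisphosphate, the strongest activator of phosphofructokinase. Pfkfb3 read 0.71, 0.40, 0.26 and 0.58 with L. acidophilus, against 0.53, 0.69, 0.74 and 1.40 with B. clausii. It was above 0 on all 8 arrays and highest on the 6 h B. clausii array, at 2.65-fold. It was lower late than early with L. acidophilus (-0.13) and higher with B. clausii (0.46). Neither its late minus early difference over both, 0.16 ± 0.13, nor the difference between the bacteria in that quantity, -0.60 ± 0.29, passed. Its mean was called higher for L. acidophilus (0.49 ± 0.10, limma adjusted p = 0.00426), as was that for B. clausii (0.84 ± 0.10, limma adjusted p = 0.000237). A dim second probe gave 0.06 and 0.18. Pfkfb4 lay between -0.04 and 0.30.

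The enzymes are taken in pathway order. Of the hexokinases, which trap glucose in the cell, Hk2 is the inducible form. It read 1.02, 0.79, 0.02 and 0.08 with L. acidophilus, against 0.79, 0.78, -0.12 and 0.38 with B. clausii. The 4 early arrays stood apart from the 4 late ones, and Hk2 fell by 0.76 ± 0.09 (limma, adjusted p = 0.000855), the 1 enzyme whose early and late arrays did not overlap. Over all genes, 7.94% had every early array above every late one, and among the members 10 of 32 did: 7 HIF targets, Slc2a1, Slc16a3 and Hk2. The reverse held for 8.18% of genes and 0 members. Hk1, the housekeeping form, lay between -0.08 and 0.17.

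Pfkl and Pfkp encode phosphofructokinase, the committed step. Pfkp read 0.27, 0.19, 0.10 and -0.54 with L. acidophilus, against 0.46, 0.28, 0.22 and -0.37 with B. clausii, and fell by 0.45 ± 0.06 (limma, adjusted p = 0.00118). The call was lost without both 6 h arrays (-0.14), with median centring (-0.27) and on the processed signals (-0.33). Pfkl read 0.00, 0.04, -0.35 and -0.41 with L. acidophilus, against 0.39, 0.12, 0.08 and -0.12 with B. clausii, and fell by 0.34 ± 0.07 (limma, adjusted p = 0.00955). The call was lost on the deposited processed signals (-0.11), with median centring (-0.16), with local background as deposited (-0.31) and without both 6 h arrays (-0.28).

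The enzymes of the middle of the chain did not pass for late minus early. Gpi1, which converts glucose 6-phosphate to fructose 6-phosphate, stayed between 0.21 and 0.37 on all 8 arrays, and Pgk1, phosphoglycerate kinase, between 0.25 and 0.44. Both were among the steadiest members, with late minus early differences of 0.02 ± 0.06 and -0.01 ± 0.06. The array files place both Pgk1 probes on chromosome 3, whereas the promoter window of Pgk1 lies on chromosome X, so copies of this gene may share the signal. Pgam1 read 0.53, 0.58, 0.47 and 0.33 with L. acidophilus. With B. clausii it read 0.63, 0.67 and 0.59 at 1, 2 and 4 h, with nothing for 6 h.

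Tpi1 and Gapdh were higher with B. clausii at 6 h than at earlier times. Tpi1, triosephosphate isomerase, read -0.08, 0.08, 0.08 and 0.04 with L. acidophilus, against 0.13, 0.29, 0.37 and 0.50 with B. clausii. Gapdh, glyceraldehyde 3-phosphate dehydrogenase and often used as a reference gene, read -0.06, -0.23, -0.12 and 0.00 against 0.18, 0.14, 0.17 and 0.69. The late minus early differences, 0.14 ± 0.06 and 0.18 ± 0.08, did not pass. Gapdh with B. clausii at 6 h corresponds to 1.62-fold.

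Aldoa and Aldoc encode aldolases. Aldoa lay between 0.05 and 0.54 on its brightest probe, and its mean was called higher for L. acidophilus (0.20 ± 0.05) and B. clausii (0.29 ± 0.05), but on the deposited processed signals these means were -0.18 and -0.09. Aldoc lay between -0.12 and 0.17, with a dimmer probe at means of -0.25 and -0.33. Eno1, an enolase, read -0.42, -0.28, -0.27 and -0.07 with L. acidophilus, against -0.29, -0.05, -0.05 and -0.03 with B. clausii, below 0 on all 8 arrays.

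At the end of the chain, Pkm, pyruvate kinase, read 0.48, 0.27, 0.18 and 0.07 with L. acidophilus, against 0.82, 0.53, 0.56 and 0.32 with B. clausii. It was higher with B. clausii at each time, and the ratio, though not the level in treated cells, fell by 0.24 ± 0.06 (limma, adjusted p = 0.0161), a call that held under 11 of 25 alternatives and vanished with median centring (-0.00). Its other probes had means of -0.06 and 0.18, and of 0.66 and 0.81, for L. acidophilus and B. clausii. Ldha, lactate dehydrogenase, lay between -0.14 and 0.42 on the chosen probe. A second Ldha probe, almost as bright, gave 0.69 and 0.50 in place of -0.01 and 0.10, so no direction is given for this gene.

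Hif1a mRNA was below the untreated level on all 8 arrays: -0.31, -0.46, -0.30 and -0.24 with L. acidophilus, against -0.59, -0.28, -0.48 and -0.19 with B. clausii. Its mean was called lower for both, -0.33 ± 0.06 (limma, adjusted p = 0.00263) and -0.39 ± 0.06 (limma, adjusted p = 0.000896), and the sign was the same with median centring and with the processed signals. The arrays measured its mRNA, not the protein that oxygen controls.

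**Figure D3:**
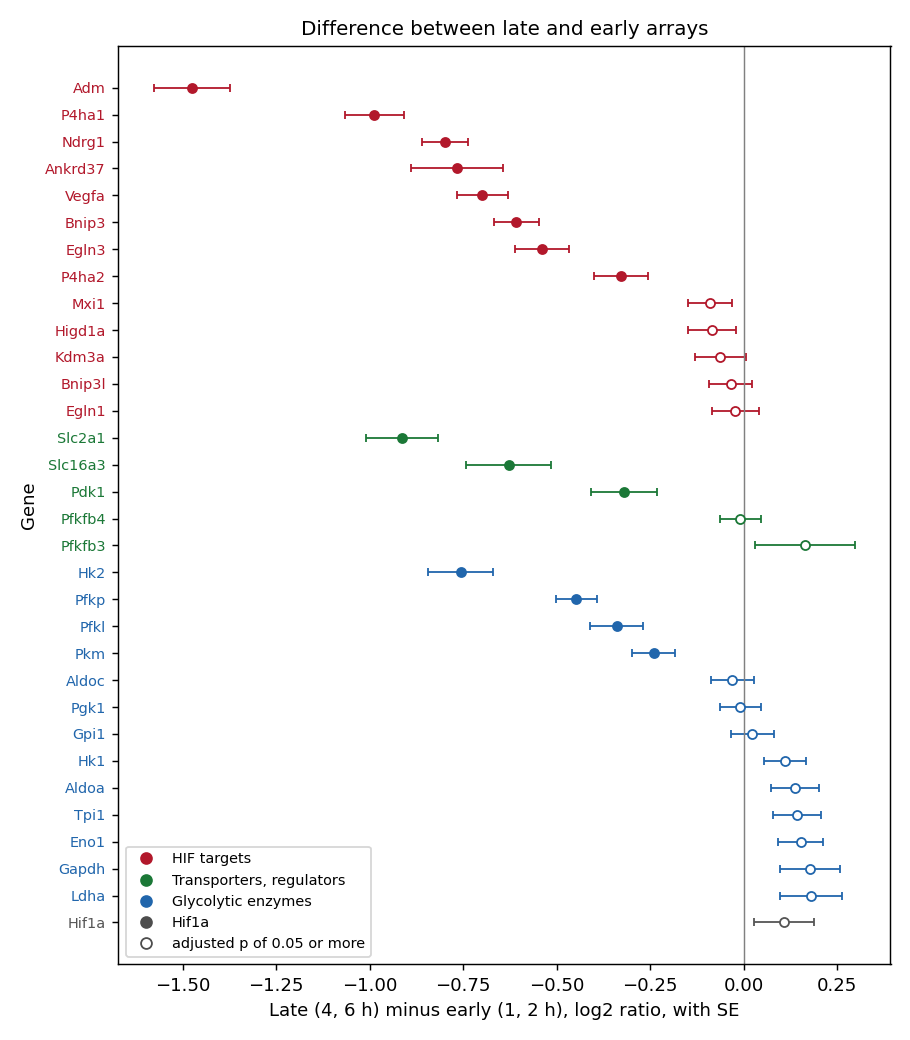
Late minus early difference of the log2 ratio (x axis) for the 32 tested genes, with standard errors of the limma fit over 8 arrays, colours by role. Filled points passed at an adjusted p under 0.05. The filled points all lie left of 0, from Adm at -1.48 to Pkm at -0.24, and the 9 enzymes that did not pass lie between -0.03 and 0.18.

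Setting HIF targets against enzymes array by array, the median of the 13 targets exceeded that of the 13 enzymes by 0.19, 0.24, -0.03 and -0.32 over 1, 2, 4 and 6 h with L. acidophilus. With B. clausii the gap was 0.16, 0.01, -0.15 and -0.44. The targets led at 1 h and trailed at 4 and 6 h with both. The enzyme median itself moved little with L. acidophilus, 0.06 to 0.08, and stood at 0.22, 0.22, 0.17 and 0.37 with B. clausii. At 1 h, 11 of 13 HIF targets were above 0 with L. acidophilus, as were 10 of 13 with B. clausii, against 54.2% and 50.1% of all genes, and at 6 h 2 and 5 of 13 were. Averaged over times, the median of the gene means was higher in the targets by 0.027 with L. acidophilus (SD over times 0.255). With B. clausii the gap was -0.224 (SD 0.258), and 0.006 on the deposited processed signals.

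**Figure D4:**
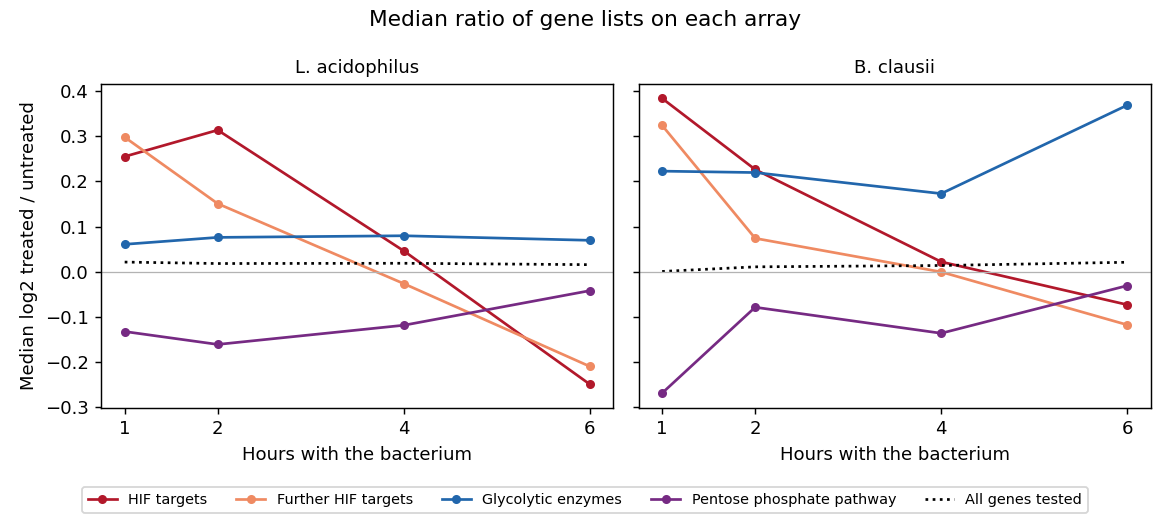
Median log2 ratio of 4 gene lists and of all genes tested (y axis) against hours (x axis), 1 array per point, L. acidophilus left and B. clausii right. The 13 HIF targets and the 21 further HIF targets start above all genes and end below them, while the enzymes stay at 0.06 to 0.08 with L. acidophilus and reach 0.37 with B. clausii.

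Over all 4 times, 17 of 32 members passed for L. acidophilus, 14 higher and 3 lower (Hif1a, Eno1, Pfkl), where 42.2% of all genes passed, 23.7% higher and 18.5% lower. For B. clausii 19 passed, 17 higher and 2 lower (Hif1a, Pdk1), where 44.2% passed, 23% higher and 21.1% lower. The share of members called higher, 43.8% and 53.1%, was thus above that of all genes, and the share called lower, 9.38% and 6.25%, below it. A constant dye effect cannot be told apart from these means. The split depended on scaling. With median centring it was 11 higher and 6 lower for L. acidophilus, where 9.04% and 30.3% of all genes were. For B. clausii it was 5 and 18, where 5.69% and 58.5% of all genes were. On the processed signals it was 7 and 7 for L. acidophilus (17.8% and 14.4% of all genes). For B. clausii these signals gave 13 and 5 (24.6% and 18.9%). Median centring put the median of all genes at -0.46, -0.25, -0.12 and -0.14 on the B. clausii arrays and at -0.11 to -0.05 on the others. Relative to that shift, the enzyme median with B. clausii was -0.03 against -0.25 for all genes, and the HIF target median -0.24. Leaving out the 1 h or the 4 h L. acidophilus array brought the L. acidophilus count to 11. Without the 1 h array 15.3% of all genes were higher and 12.4% lower, and without the 4 h array 13.1% and 8.77%.

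The HIF targets called higher over all times with both bacteria included Adm (0.85 ± 0.07 and 1.13 ± 0.07), Ankrd37 (0.60 ± 0.09 and 1.22 ± 0.09), Bnip3 (0.29 ± 0.04 and 0.33 ± 0.04), Vegfa and Kdm3a. With median centring the B. clausii means of Bnip3, Vegfa and Kdm3a and the L. acidophilus mean of Vegfa turned negative. With local background as deposited the L. acidophilus calls of Adm (0.51), Ankrd37 (0.32), Vegfa (0.07) and Kdm3a (0.12) were lost. This left 1 of the 13 targets called higher, where 7.06% of all genes were, against 5 and 23.7% in the main fit. On the processed signals the L. acidophilus calls of Vegfa (0.17) and Kdm3a (0.17) were lost. P4ha1 and Ndrg1, high early and low late, had means of at most 0.05 and passed for neither bacterium.

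No member passed for the difference of the bacteria (0 of 32, where 0.643% of genes passed). Of the members 11 had an unadjusted p under 0.05 in limma, as had 3357 of the 14782 genes. Nearest were Pkm, -0.31 ± 0.06 (limma, adjusted p = 0.0582), Ankrd37, -0.62 ± 0.12 (limma, adjusted p = 0.0637), and Gapdh, -0.40 ± 0.08 (limma, adjusted p = 0.0637), all lower with L. acidophilus. With median centring 13 members passed, all higher with L. acidophilus. The median of all genes was then -0.08 with L. acidophilus and -0.25 with B. clausii, a shift in the same direction. The count is thus not read as a result about the members, and no direction is given for the group. For the difference of the bacteria in late minus early, no gene of the 14782 passed (0% of genes), and 175 genes and 0 members had an unadjusted p under 0.05 in limma. Standard errors of the members ran from 0.15 (Pgk1) to 0.44 (Ndrg1) there, against 0.06 for either gene in late minus early. Not passing there thus does not show that the bacteria ran alike.

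The channels were also read apart, as log2 levels after loess and a between-array scaling. In treated cells 12 members passed for late minus early, 11 lower and Hk1 higher (0.30 ± 0.07), where 12.3% of genes passed, 6.45% lower and 5.89% higher, and in untreated cells 0 passed, where 1.09% did, with 5 members at an unadjusted p under 0.05. The treated count was 0 without the 4 h L. acidophilus array and 0 without both 1 h arrays. The shares of all genes in those fits are not given, so few genes of any kind may have passed there. Adm in untreated cells stayed between 9.54 and 9.78 on all 8 arrays, while in treated cells it was 11.74, 11.22, 9.95 and 9.54 with L. acidophilus. Its ratio thus followed the treated channel.

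The untreated level of Slc2a1 was 12.65, 12.79, 13.09 and 13.37 on the L. acidophilus arrays and 12.79, 12.85, 12.98 and 13.34 on the B. clausii arrays, a difference of 0.42 ± 0.06 that did not pass (limma, adjusted p = 0.0531). Its treated level fell by 0.49 ± 0.12 (limma, adjusted p = 0.0455). P4ha1 in untreated cells was lowest on both 6 h arrays, 9.61 and 9.95 against 10.44 to 10.87 on the other 6, a difference of -0.51 ± 0.11 that did not pass, and in treated cells it fell by 1.49 ± 0.09 (limma, adjusted p = 0.00438). The Pkm ratio fell without a lower treated level: late minus early was 0.13 ± 0.12 in treated cells and 0.37 ± 0.13 in untreated cells (limma, adjusted p = 0.535 and 0.330), and neither passed. Ankrd37 (-0.63 ± 0.18), Slc16a3 (-0.40 ± 0.13) and Pfkl (-0.32 ± 0.10), whose ratios also fell, did not pass in treated cells.

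**Figure D5:**
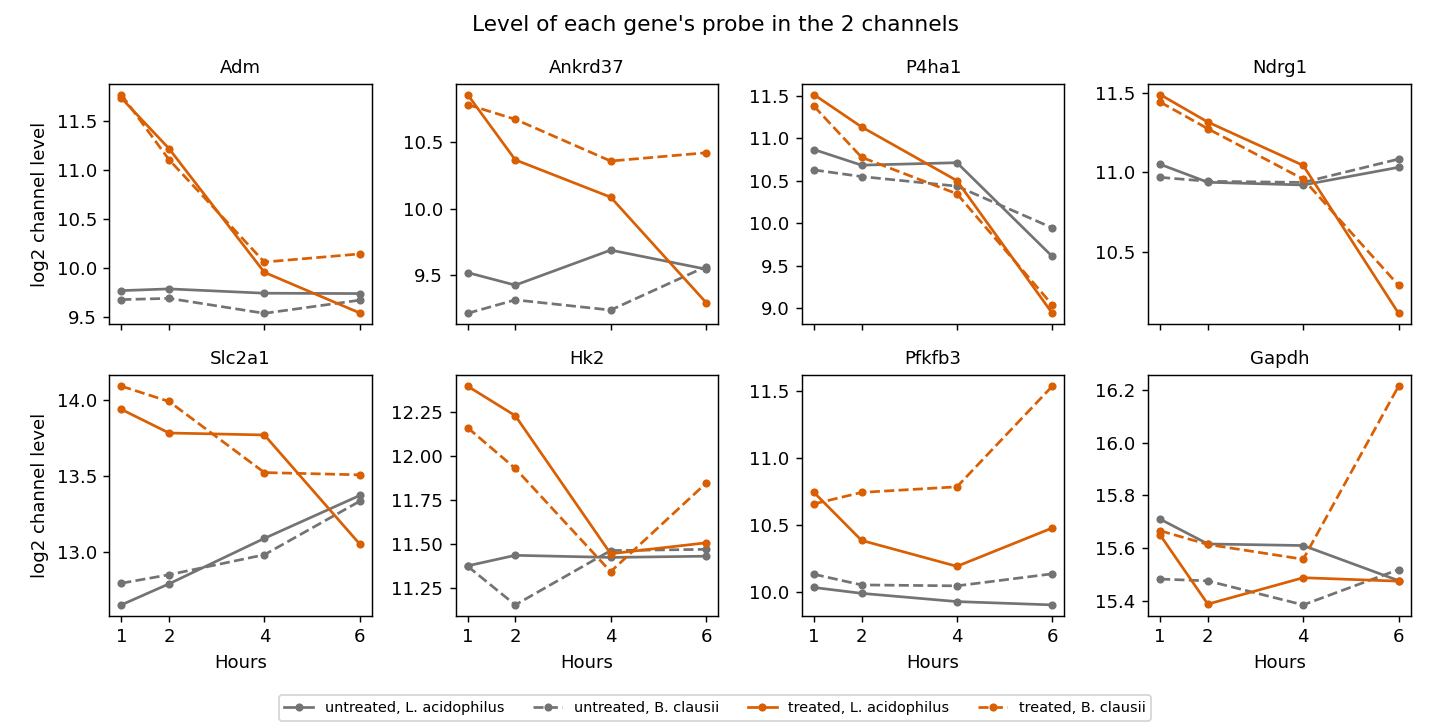
Log2 level of the probes of 8 genes (y axis, a separate scale per gene) against hours (x axis) in untreated (grey) and treated (orange) cells, L. acidophilus solid and B. clausii dashed, 1 array per point. Adm and Hk2 change in the treated channel, the untreated Slc2a1 level lies higher at 6 h than at 1 h, and Pfkfb3 is highest in cells treated with B. clausii for 6 h.

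A list of 25 further HIF targets, of which 21 were tested, ran the same way. It too was chosen with earlier results of these data known. From early to late 11 fell and 1 rose, with a median of -0.25, where 12.3% of all genes fell and 12.2% rose. The fallers were led by Car12, a carbonic anhydrase (-0.86 ± 0.08), Ddit4, an inhibitor of mTOR signalling (-0.76 ± 0.08), and Ccng2, a cyclin tied to growth arrest (-0.76 ± 0.07). Ddit4 read 1.10, 1.01, 0.58 and -0.20 with L. acidophilus, against 1.26, 1.33, 1.21 and 0.05 with B. clausii, so it came down between 4 and 6 h with the latter. Hmox1, heme oxygenase, which other stress pathways also control, was the 1 that rose (0.36 ± 0.07). With median centring 5 of the 21 fell, where 2.58% of all genes did, and on the processed signals 6, where 4.28% did.

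Of 9 tested components of the HIF pathway, 3 rose from early to late (Vhl, the adaptor that binds hydroxylated HIF, 0.29 ± 0.06; Elob and Rbx1 of the same ubiquitin ligase, 0.28 ± 0.06 and 0.24 ± 0.07). The HIF inhibitor gene Hif3a fell by 0.37 ± 0.06 and was itself higher in treated cells on all 8 arrays, 0.10 to 0.78. The count of 3, where 12.2% of all genes rose, was 0 without the 2 h L. acidophilus array or both 6 h arrays. It was 1 without the 4 h array of either bacterium, on processed signals, with local background as deposited or with averaged probes. Under these settings 3.95% to 10.8% of all genes rose. Of 11 further glycolytic isoforms and transporters, Eno2, another enolase (-0.48 ± 0.15), and Slc16a1, the monocarboxylate transporter MCT1 (-0.28 ± 0.05), fell and Pfkm, the muscle phosphofructokinase, rose (0.29 ± 0.08). Eno2 had the highest mean of that list, 0.53 ± 0.11 with L. acidophilus, against 0.84 ± 0.11 with B. clausii.

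In neighbouring pathways the counts were near the 12.3% of all genes that fell and the 12.2% that rose, given so few genes. Of 10 genes for pyruvate entry into mitochondria, 0 fell and 2 rose, Dlat (0.39 ± 0.07) and Dld (0.27 ± 0.06), both subunits of pyruvate dehydrogenase. Over all times 4 of the 10 were called lower with each bacterium, where 18.5% and 21.1% of all genes were. The pyruvate carrier Mpc1 (-0.21 ± 0.04 and -0.34 ± 0.04) was among these 4. Of 8 pentose phosphate genes, 0 fell and 2 rose, G6pdx (0.23 ± 0.06) and Pgls (0.28 ± 0.06), the first enzymes of the pathway. On the processed signals 0 rose in either list, where 4.53% of all genes did. Over all times 4 of the 8 pentose phosphate genes were lower with each bacterium. For all genes the shares were 18.5% (L. acidophilus) and 21.1% (B. clausii). G6pdx was at -0.26 ± 0.04 and -0.20 ± 0.04, while Tkt, transketolase, was higher with B. clausii (0.27 ± 0.04).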

How the data were processed

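Per the series' text, each array held equal amounts of RNA from 3 cultures. Per the file headers, the deposited spot values are foreground mean and background median intensities in each channel, with processed intensities and log10 ratios by the authors' scanner software, Feature Extraction (10.7.3.1 in the headers, 10.5.1.1 in the submitters' processing notes). Deposited 0 or 1 flags mark outlier, saturated and detected spots. The authors' series matrix holds the same log10 ratios rounded, in the same direction.

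Intensities were background-corrected with normexp (offset 50) after local backgrounds above 3 times the array's median that were flagged as outliers had been set to that median, and the log2 ratios of each array were then loess-normalized in limma 3.58.1 (statmod 1.5.0, data.table (1.17.8), R 4.3.3). Spots flagged as outliers were left out, which dropped 549 probes on some array. Probes well above background in 1 channel on at least 2 arrays were kept (21273), named by a RefSeq gene table, and the brightest probe stood for its gene. Limma (lmFit, eBayes) fitted bacterium and time with 3 residual degrees of freedom, and 4 cells of bacterium and phase with 4 for the interaction. With pooled RNA and single arrays, p-values do not measure the spread between cultures. Channel levels came from Aquantile scaling. All 33 members were named, of other lists up to 3 called genes at each end, and member probes that differ in sign or by over 0.5 log2 from the brightest. Members and lists were chosen with earlier results of these data known. Keeping probes with a missing array was tried after the data had been seen. Not every marker gene examined is reported here. The scripts were tested on simulated data. Promoters were read in Python 3.11.15 and plots drawn with matplotlib 3.10.9.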

Additional observations from a re-analysis of the deposited data

How the results depend on the processing

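The counts of members that passed moved by over 1.5 times in these cases. For the L. acidophilus mean the count was 17, where 23.7% of all genes were higher and 18.5% lower. It was 10 with local background as deposited, where 7.06% were higher and 8.68% lower. It was 6 without a time term, where 12.2% were higher and 8.43% lower, and 11 to 19 with 1 array left out. For the difference of the bacteria (0) it was 13 with median centring, 1 with scaling between arrays and 4 with detection required in both channels of all arrays. These counts stand without the shares of all genes, so they are not read as results about the members. For late minus early the count was 15, all lower, where 12.3% of all genes fell. It was 9 on processed signals, where 4.28% fell, and 9 without both 6 h arrays, where 4.12% fell. With 1 array left out it was 11 to 17. The 17, without the 1 h or without the 6 h L. acidophilus array, were 15 lower and 2 higher. Of all genes 11.7% and 14.3% then fell, and 13.0% and 13.1% rose. With averaged probes 1 member rose, where 10.8% of all genes did, and without both 4 h arrays 1, where 11.4% did. For untreated cells (0) it was 1 with local background as deposited, 1 with the strict filter, 1 with a trended robust prior, and 0 to 2 with 1 array left out. For treated cells (12) it was 7 on processed signals, 2 without a time term, 0 without both 1 h arrays, 6 without both 6 h arrays, and 0 to 16 with 1 array left out. The counts for untreated and treated cells stand without the shares of all genes, so they are not read as results about the members. The B. clausii count (19) was 17 to 20 with 1 array left out.

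With median centring B. clausii means turned negative for Aldoc (-0.37), Bnip3 (-0.066), Bnip3l (-0.34), Egln3 (-0.24), Gapdh (-0.028), Hk1 (-0.29), Hk2 (-0.0052), Kdm3a (-0.19), Ldha (-0.24), Ndrg1 (-0.46), Pfkfb4 (-0.40), Pfkl (-0.35), Pfkp (-0.28), Tpi1 (-0.0042) and Vegfa (-0.18), as did L. acidophilus means for Pfkfb4 (-0.020) and Vegfa (-0.0078). The L. acidophilus minus B. clausii difference became positive for Aldoa (0.28), Bnip3 (0.28), Gpi1 (0.31), Higd1a (0.32), Ndrg1 (0.28) and Pgk1 (0.28). On processed signals and on series matrix ratios alike, means were -0.18 (L. acidophilus) and -0.094 (B. clausii) for Aldoa and -0.26 (L. acidophilus) for Tpi1. Averaging probes gave 0.34 for Ldha (L. acidophilus), -0.12 for Aldoc and -0.013 for Bnip3l (B. clausii). Without both 6 h arrays the mean was 0.15 for P4ha2 (L. acidophilus) and 0.30 for P4ha1 (B. clausii). The cause was not tested. No late minus early value of a member that passed in either fit turned its sign. Keeping the incomplete probe of Pgam1, whose 6 h B. clausii value is then missing, gave means of 0.48 ± 0.04 and 0.59 ± 0.05 (limma, adjusted p = 0.000243 and 8.84e-05) and a late minus early difference of -0.14 ± 0.07 that did not pass. The time term pairs the arrays of both bacteria within each time. Without this pairing late minus early gave 11 members, all lower, where 4.88% of all genes fell. The L. acidophilus mean then gave 6, where 12.2% of all genes were higher and 8.43% lower. The labels give no replicate numbers shared between groups beyond this pairing by time, since each bacterium and time has 1 array.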
